A study of Homo sapiens with 9 samples.

Results

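The genes described here are 10 markers of primed and formative pluripotency, OTX2, SALL2, CD24, THY1, PTPRZ1, USP44, POLR3G, CYTL1, SOX11 and NRK, taken by symbol from a table of 40332 genes. The members were chosen by their measured levels in all 3 culture groups, with earlier results of these data known. Their values are therefore given as a description, with errors and without a p. RNA-seq was made on wild-type H1, a long-established line of human embryonic stem cells. In 3 libraries the cells had been in N2B27 medium for 3 days with EPZ-6438 at 5 µM, which inhibits the histone methyltransferase EZH2. Another 3 came from N2B27 basal medium alone, and 3 from PXGL, a medium that holds naive pluripotency. Sample names of all groups carry PXGL. The labels leave out how long cells were in N2B27 alone, so the inhibitor and the time in N2B27 cannot be told apart. All 3 groups are 1 cell line, and the labels do not say whether replicates were separate cultures, so errors measure the spread between libraries.

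Naive human pluripotent cells resemble the epiblast before implantation, and primed cells resemble it after implantation. The formative state lies between them and is entered when inhibitors that hold the naive state are removed. Surface proteins such as CD24 and THY1 are used to sort primed cells from naive cells, and factors such as OTX2 mark the exit from the naive state. EZH2 is the catalytic subunit of Polycomb repressive complex 2 (PRC2), which places H3K27me3 on repressed genes, often at promoters rich in CpG dinucleotides.

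Total counts were 14719595 to 16479593 per library with EPZ-6438, 14482124 to 15295189 in N2B27 and 17499691 to 18358519 in PXGL. Replicate 1 in PXGL was unlike its fellows: its counts differed from theirs with a chi-square per degree of freedom of 19.6 and 26.3, against 3.41 between replicates 2 and 3. Levels are CPM (read counts relative to library size) scaled by the trimmed mean of M-values (TMM). They are given as mean ± SD with n = 3 per group. In bulk RNA, fewer cells with a transcript and less transcript per cell cannot be told apart. The pluripotency factor POU5F1 was at 1178 ± 14.3 CPM with EPZ-6438, 1426 ± 28.9 CPM in N2B27 and 1320 ± 163 CPM in PXGL. All 6 core pluripotency markers were above 1 CPM in every group. With EPZ-6438 against N2B27 all 6 fell by edgeR's quasi-likelihood test (median log2 fold change -0.36), beside 10.6% of all genes called lower. The lowered members below moved in the same direction, while OTX2, SOX11 and NRK moved the other way. SOX2 fell to 63.6 ± 7.50 CPM with EPZ-6438, against 116 ± 4.90 CPM in N2B27 (log2 -0.87, edgeR adjusted p = 5.53e-07). The part of this fall in the members' values was not tested.

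The data went against the label for 2 of the 10 genes: OTX2 was lower in N2B27 than in PXGL, and CYTL1 was not detectable above the floor. The other 8 were higher in every N2B27 library than in every PXGL library, POLR3G by the smallest margin (1.23-fold). A member was counted as lowered by EPZ-6438 where all 3 inhibitor libraries lay below all 3 N2B27 libraries and the mean was at least 1.5-fold lower. It was counted as left high where it was not lowered and its inhibitor mean was at least 2-fold above the PXGL mean. By this rule 5 were lowered (SALL2, CD24, THY1, PTPRZ1 and USP44), 2 were left high (SOX11 and NRK) and 3 were neither (OTX2, POLR3G and CYTL1). Of all 15179 genes tested, 3.97% met the rule for lowered and 10.2% the rule for left high. Of the 9 fitted members, 3 lay wholly above and 6 wholly below N2B27 with EPZ-6438, beside 23.9% and 22.6% of all genes. In N2B27 against PXGL, 8 lay wholly above and 1 wholly below, beside 29.4% and 31.3% of all genes. With EPZ-6438 against PXGL, 7 lay wholly above and 0 wholly below, beside 30.6% and 30.1% of all genes. Since these levels chose the genes, nothing is read from the shares. The member just inside the bound was SALL2, 1.97-fold lower, and the one just outside was POLR3G, 1.36-fold lower.

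Promoter sequences from RefSeq (GRCh38.p14), 250 bases before to 50 bases after a start, were matched for 6 of the 10 members. Those of 4 members are shown to set genes that moved together beside genes that did not. Capitals mark CpG dinucleotides. PTPRZ1 (chr7:121872911-121873210, plus strand) and SALL2 (chr14:21537072-21537371, minus strand) were lowered, NRK (chrX:105822289-105822588, plus strand) was left high, and OTX2 (chr14:56810430-56810729, minus strand, its first listed start) was neither.
PTPRZ1: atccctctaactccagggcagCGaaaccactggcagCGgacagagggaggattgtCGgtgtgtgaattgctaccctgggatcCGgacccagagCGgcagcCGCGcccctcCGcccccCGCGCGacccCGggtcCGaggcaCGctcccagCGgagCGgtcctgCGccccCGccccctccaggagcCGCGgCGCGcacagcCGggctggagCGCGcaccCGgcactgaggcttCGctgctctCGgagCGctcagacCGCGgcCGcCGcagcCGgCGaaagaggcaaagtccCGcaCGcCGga
SALL2: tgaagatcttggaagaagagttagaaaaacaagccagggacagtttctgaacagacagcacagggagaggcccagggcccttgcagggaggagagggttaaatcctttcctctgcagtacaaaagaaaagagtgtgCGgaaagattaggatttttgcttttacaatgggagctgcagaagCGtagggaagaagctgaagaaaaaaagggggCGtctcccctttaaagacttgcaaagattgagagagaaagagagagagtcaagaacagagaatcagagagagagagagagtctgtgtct
NRK: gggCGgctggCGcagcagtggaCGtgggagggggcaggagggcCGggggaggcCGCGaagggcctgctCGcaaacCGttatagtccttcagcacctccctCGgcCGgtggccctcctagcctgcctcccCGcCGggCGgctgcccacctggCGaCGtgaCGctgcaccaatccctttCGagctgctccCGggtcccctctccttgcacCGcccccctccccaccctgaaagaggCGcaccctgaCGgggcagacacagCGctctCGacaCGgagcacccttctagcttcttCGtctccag
OTX2: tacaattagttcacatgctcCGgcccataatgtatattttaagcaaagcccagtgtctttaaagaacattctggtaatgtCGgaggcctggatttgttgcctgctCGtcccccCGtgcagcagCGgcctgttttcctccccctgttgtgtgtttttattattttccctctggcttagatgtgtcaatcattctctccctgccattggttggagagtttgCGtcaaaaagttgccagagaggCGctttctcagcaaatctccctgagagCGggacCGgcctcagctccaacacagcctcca
The PTPRZ1 promoter holds 38 CpG dinucleotides, and 90.1% of 35114 promoters hold fewer. The SALL2 promoter holds 3, and 18.2% hold fewer, so the lowered genes include a CpG-rich and a CpG-poor start. The 3 listed starts of CD24, also lowered and not shown, hold 25, 36 and 21 (68.0%, 87.3% and 60.5% hold fewer). The NRK promoter holds 25 (68.0% hold fewer) and this OTX2 promoter holds 9 (41.6% hold fewer). The median of all promoters is 14. Of 4 motifs searched on both strands, the SOX motif ACAATG (reverse CATTGT) occurs in the SALL2 window and in 10.8% of all promoters. The bicoid homeodomain motif TAATCC (reverse GGATTA) occurs in 1 of 3 listed CD24 starts and in 6.36% of all promoters. The octamer ATGCAAAT (reverse ATTTGCAT) and the TATA box letters TATAAA (reverse TTTATA) occur in none of the matched member windows, against 1.77% and 11.5% of all promoters.

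Among the transcription factors, OTX2, SALL2 and SOX11 took 3 different courses. OTX2, a bicoid-type homeodomain factor of the epiblast and anterior brain (chromosome 14, 56799905 to 56810479), had 12.4, 13.7 and 13.1 CPM with EPZ-6438, against 8.43, 8.44 and 9.60 CPM in N2B27 and 12.4, 12.7 and 12.05 CPM in PXGL. The N2B27 libraries lay below all others, and the inhibitor libraries overlapped those in PXGL. With EPZ-6438 the OTX2 level was 1.48-fold that in N2B27 (log2 0.57, SE 0.13), and in N2B27 it was 1.40-fold below PXGL (log2 -0.49, SE 0.12).

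SALL2, a zinc finger factor of the spalt family (chromosome 14, 21521081 to 21537216), had 30.9, 32.5 and 34.3 CPM with EPZ-6438, against 64.1, 63.8 and 64.4 CPM in N2B27. In PXGL it had 14.2, 20.8 and 20.3 CPM, the lowest of the 9 values being that of PXGL replicate 1. No groups overlapped, and the inhibitor libraries lay between the others. The SALL2 level with EPZ-6438 was 1.97-fold below N2B27 (log2 -0.98, SE 0.11) and 1.77-fold above PXGL. In N2B27 it was 3.48-fold above PXGL (log2 1.80, SE 0.11).

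SOX11, an SRY-related factor of neural progenitors and early epiblast (chromosome 2, 5692667 to 5701385), had 11.3, 8.03 and 9.56 CPM with EPZ-6438, against 5.92, 5.70 and 5.80 CPM in N2B27. In PXGL it had 17 counts in all, of which 12 were in replicate 1. Each inhibitor library was above each N2B27 library, and the spread among inhibitor libraries was wider (SD 1.66 against 0.112 CPM). The SOX11 level was 1.66-fold higher with EPZ-6438 than in N2B27 (log2 0.73, SE 0.24) and 18.2-fold higher in N2B27 than in PXGL (log2 4.18, SE 0.38). Without PXGL replicate 1 the log2 fold change of N2B27 over PXGL was 5.32, and that of EPZ-6438 over PXGL was 6.04, against 4.91 with it. Over the alternative fits these SOX11 values ran from 3.69 to 5.32 and from 4.42 to 6.04.

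**Figure D1:**
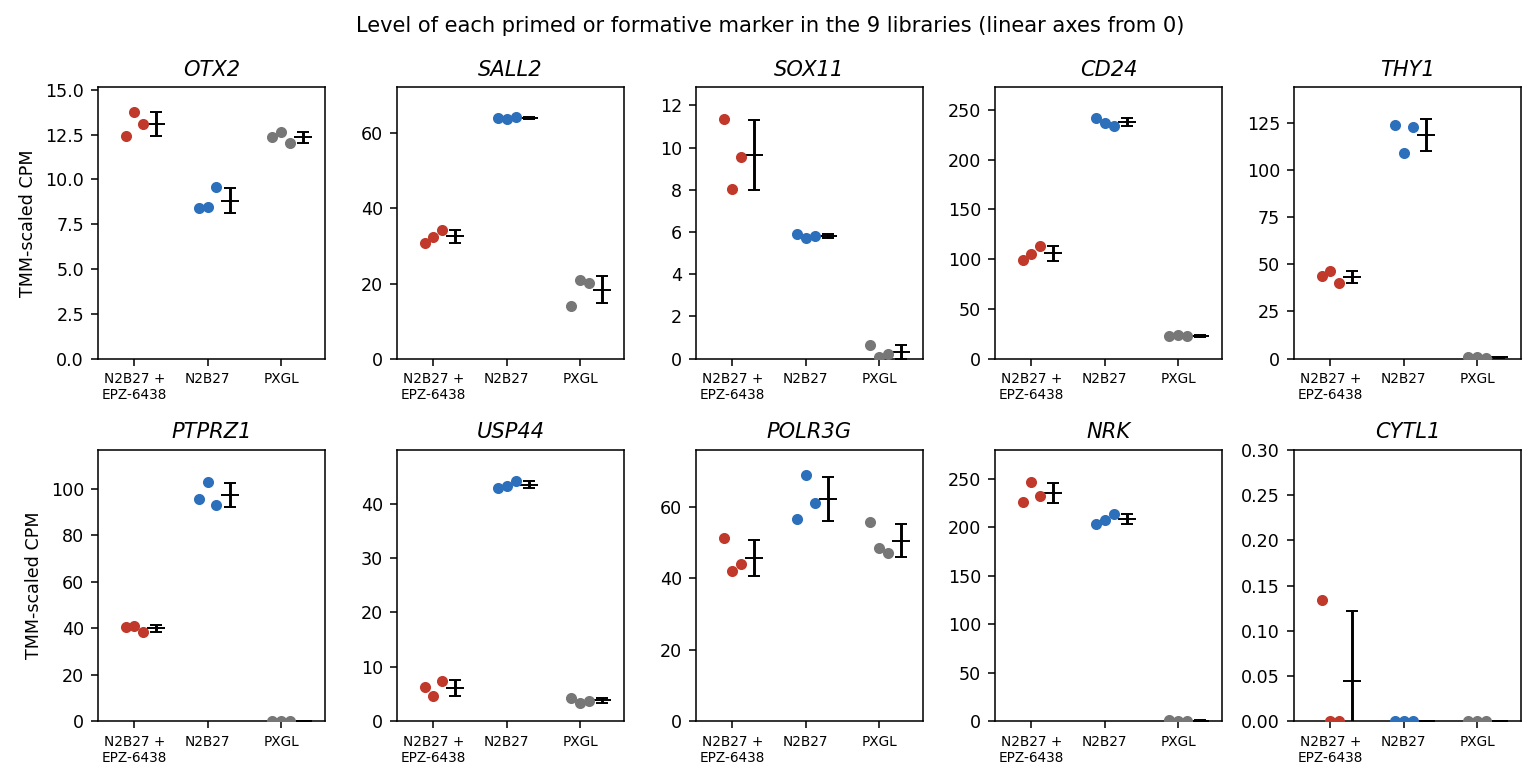
TMM-scaled CPM (vertical axes, linear and from 0) of the 10 members in each library of N2B27 with EPZ-6438 (red), N2B27 (blue) and PXGL (grey), with the mean ± SD beside the 3 points. The inhibitor points of SALL2, CD24, THY1 and PTPRZ1 lie between the other groups, those of USP44 lie near PXGL, those of NRK and SOX11 lie above N2B27, and CYTL1 has 1 point above 0.

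Of the 3 cell surface genes, all were lowered and none returned to its PXGL level. CD24, a small glycosylated membrane-anchored protein used as a primed marker (chromosome 6, 106969831 to 106975627), had 98.7, 105 and 114 CPM with EPZ-6438. It had 241, 237 and 234 CPM in N2B27, and 22.5, 23.7 and 22.3 CPM in PXGL. The groups stood far apart. The CD24 level with EPZ-6438 was 2.24-fold below N2B27 (log2 -1.17, SE 0.07) and 4.64-fold above PXGL. CD24 has pseudogene copies, of which CD24P1 and CD24P2 hold no count and CD24P4, on chromosome Y, was not read here. How reads they share with CD24 were assigned is therefore uncertain.

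THY1, or CD90, a membrane-anchored immunoglobulin-type protein (chromosome 11, 119417378 to 119424985), had 44.0, 46.3 and 40.1 CPM with EPZ-6438, against 124, 109 and 123 CPM in N2B27. In PXGL it had 34 counts over the 3 libraries, a mean of 0.623 ± 0.164 CPM. The THY1 level was 2.72-fold lower with EPZ-6438 than in N2B27 (log2 -1.44, SE 0.09) but still 68.9-fold above PXGL. THY1 also marks fibroblasts. The summed level of 7 fibroblast markers was 43.9 to 45.8 CPM with EPZ-6438, 54.1 to 56.3 CPM in N2B27 and 13.99 to 19.4 CPM in PXGL. All 3 that were tested (COL1A1, COL1A2 and PDGFRB) rose in N2B27 against PXGL by edgeR's test, the direction seen for THY1. With EPZ-6438 against N2B27, COL1A1 and COL1A2 fell (edgeR adjusted p = 0.0196 and 0.0485), also the direction of THY1. PDGFRB did not pass there (edgeR adjusted p = 0.93). POSTN and COL3A1, too low to be tested, went the other way, with 19 and 5 counts with EPZ-6438 against 1 and 0 in N2B27. The collagen gene COL1A2 was at 23.3 ± 0.688 CPM with EPZ-6438, 28.4 ± 1.28 CPM in N2B27 and 2.48 ± 0.260 CPM in PXGL. DCN, a defining fibroblast proteoglycan, had no count with EPZ-6438 or in N2B27. LUM, another, had none in N2B27 or PXGL, and 4 of the 7 were under 1 CPM with EPZ-6438 and in N2B27, against 5 in PXGL. The part of such cells in the THY1 values was not tested.

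PTPRZ1, a receptor-type tyrosine phosphatase that binds pleiotrophin (chromosome 7, 121873089 to 122062036), had 40.5, 41.0 and 38.4 CPM with EPZ-6438, against 95.7, 103 and 93.0 CPM in N2B27. In PXGL there was 1 count over the 3 libraries. The level was 2.43-fold lower with EPZ-6438 than in N2B27 (log2 -1.28, SE 0.08). The ratio of EPZ-6438 to PXGL was 2180 with a 95% counting interval of 391 to 86143, which covers counting error only.

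Of the enzymes and kinases, USP44 was the member lowered furthest and NRK the one nearest to its N2B27 level among the genes higher in N2B27 than in PXGL. USP44, a deubiquitinase that acts on histone H2B and in the mitotic checkpoint (chromosome 12, 95516560 to 95551490), had 6.31, 4.62 and 7.39 CPM with EPZ-6438. It had 42.9, 43.2 and 44.1 CPM in N2B27, and 4.33, 3.40 and 3.78 CPM in PXGL. The inhibitor libraries were close to PXGL, with no overlap. The USP44 level was 7.14-fold lower with EPZ-6438 than in N2B27 (log2 -2.84, SE 0.14), the 7th lowest of 15179 fold changes, and 1.58-fold above PXGL (log2 0.66, SE 0.17). In N2B27 it was 11.3-fold above PXGL.

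NRK, a germinal centre kinase-type protein kinase best known from placenta and embryo (chromosome X, 105822543 to 105958610), had 226, 247 and 232 CPM with EPZ-6438, against 203, 208 and 213 CPM in N2B27. In PXGL it had 25 counts, 15 of them in replicate 1. Each inhibitor library was above each N2B27 library, by a margin small beside the gap to PXGL. The NRK level with EPZ-6438 was 1.13-fold that in N2B27 (log2 0.18, SE 0.09), and the level in N2B27 was 446-fold that in PXGL (log2 8.80, SE 0.17). Without PXGL replicate 1 the log2 fold change of N2B27 over PXGL was 9.52, and that of EPZ-6438 over PXGL was 9.69, against 8.98 with it. Over the alternative fits these NRK values ran from 8.34 to 9.52 and from 8.51 to 9.69. The SE, which uses a spread shared by all groups, is narrow beside these ranges.

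POLR3G, a subunit of RNA polymerase III enriched in pluripotent cells (chromosome 5, 90471748 to 90514553), had 51.4, 42.0 and 44.0 CPM with EPZ-6438, against 56.7, 69.0 and 61.2 CPM in N2B27 and 55.8, 48.6 and 47.2 CPM in PXGL. The inhibitor and PXGL libraries overlapped. The POLR3G level was 1.36-fold lower with EPZ-6438 than in N2B27 (log2 -0.44, SE 0.10) and 1.23-fold higher in N2B27 than in PXGL (log2 0.30, SE 0.10). POLR3G shares 260 bases of exon with MBLAC2 on the opposite strand, and their reads there cannot be told apart without strand.

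CYTL1, a secreted cytokine-like protein (chromosome 4, 5014586 to 5019472), had 2 counts with EPZ-6438, both in 1 library, and none in N2B27 or PXGL. A count of 0 over the 3 libraries allows up to 0.0688 CPM in N2B27 and 0.0550 CPM in PXGL, where 3 counts set the limit. It was the single member below the low-count filter, so 9 of 10 were fitted. PTPRZ1 and SOX11 reached the filter in no PXGL library, NRK in 1 and THY1 in 2. They passed it through the groups where they are high.

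**Figure D2:**
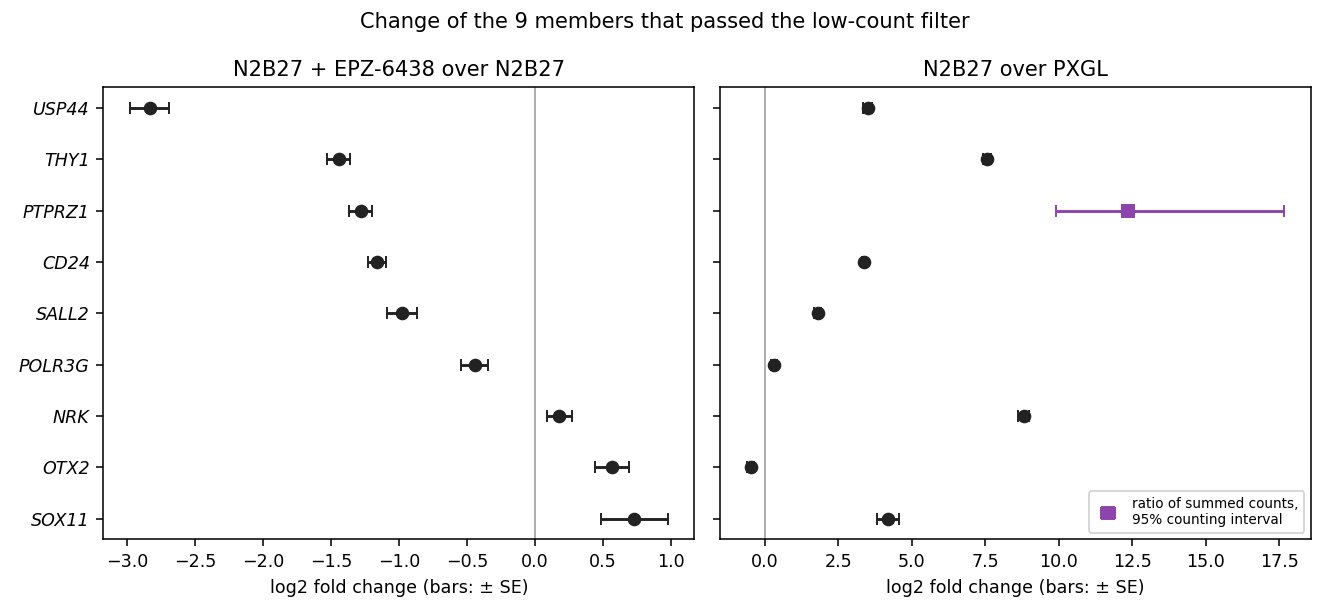
Log2 fold changes (horizontal axes) of the 9 fitted members for N2B27 with EPZ-6438 over N2B27 (left) and N2B27 over PXGL (right), with bars of 1 SE. PTPRZ1 on the right is the ratio of summed counts with its 95% counting interval, because PXGL held 1 count. USP44 is lowest on the left at log2 -2.84, and the members above 0 there are NRK, OTX2 and SOX11.

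For the 7 members higher in N2B27 than in PXGL by at least 2-fold, the gain kept with EPZ-6438 was expressed as a percent of the CPM gain in N2B27. The difference between the inhibitor mean and the PXGL mean was 41.1% of the N2B27 gain for PTPRZ1, 38.7% for CD24, 36.4% for THY1 and 30.9% for SALL2. Single inhibitor libraries ranged from 39.4% to 42.2% for PTPRZ1 and from 27.2% to 34.8% for SALL2. In these library values CD24 overlapped PTPRZ1 and THY1, and THY1 overlapped SALL2, while PTPRZ1 lay wholly above THY1. USP44 kept 5.74% (1.99% to 8.98%), apart from the other lowered genes. NRK stood at 113% (109% to 119%) and SOX11 at 170% (140.5% to 201%). These shares restate the levels on 1 scale and carry no test.

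**Figure D3:**
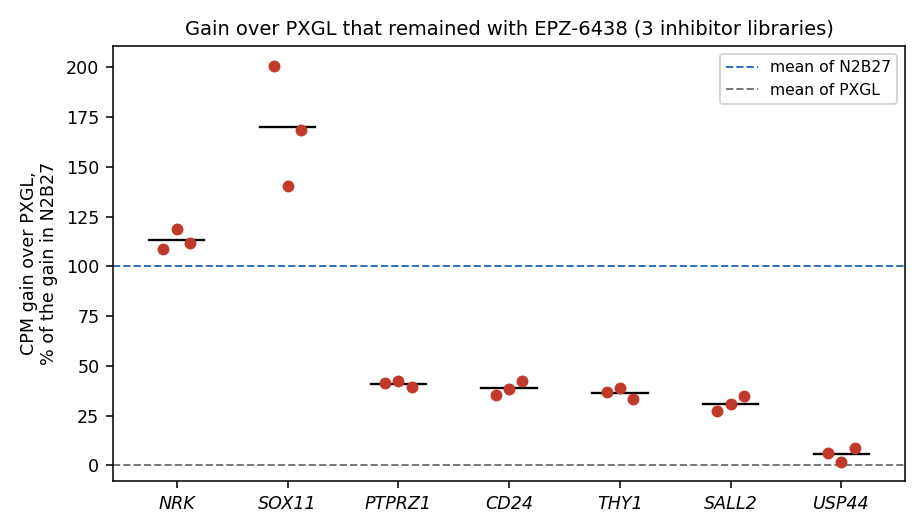
CPM gain over the PXGL mean in each of the 3 inhibitor libraries, as a percent of the gain in N2B27 (vertical axis). Shown are the 7 members higher in N2B27 than in PXGL by at least 2-fold. POLR3G, 1.23-fold higher, is not shown. The bar is the group mean, the grey line PXGL and the blue line N2B27. PTPRZ1, CD24, THY1 and SALL2 lie between 27.2% and 42.3%, USP44 lies under 9%, and NRK and SOX11 lie over 100%.

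Per kilobase of exon, the order of levels changed between groups. The length joins all annotated exons of a gene, so it sets genes side by side only roughly. With EPZ-6438, CD24 stood highest at 34.2 ± 2.41 CPM per kb, then NRK at 24.6 ± 1.09 and POLR3G at 11.4 ± 1.23. PTPRZ1 at 4.03 ± 0.142 and OTX2 at 3.997 ± 0.204 did not differ beyond their spread, nor did USP44 at 1.13 ± 0.259 and SOX11 at 1.11 ± 0.190. In N2B27, CD24 was at 76.6 ± 1.253, and NRK at 21.7 ± 0.525 and THY1 at 19.99 ± 1.42 were close. In PXGL the order was led by POLR3G at 12.6 ± 1.15, CD24 at 7.36 ± 0.243 and OTX2 at 3.78 ± 0.0927 CPM per kb. SALL2 at 3.42 ± 0.688 did not differ from OTX2 there beyond its spread.

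The genes most like OTX2 and USP44 were sought by the distance between centred log2 CPM over the 9 libraries, among 11413 genes. For OTX2 they included the kinase DMPK and the scavenger receptor SCARA3, at distances of 0.23 and 0.25. SCARA3 averaged 62.6 ± 1.37 CPM with EPZ-6438, 44.8 ± 0.666 CPM in N2B27 and 60.2 ± 4.39 CPM in PXGL. For USP44 the nearest were HBA2, NSG1 and PDZD4, much farther off at 1.41, 1.72 and 1.81. PDZD4 averaged 49.98 ± 2.12 CPM with EPZ-6438, 139 ± 2.38 CPM in N2B27 and 24.7 ± 1.37 CPM in PXGL. HBA2, an alpha globin gene, has a near-identical copy, so its reads are uncertain. Among the members, OTX2 and POLR3G were nearest to each other (1.37), but they moved in opposite directions. Their log2 fold changes were 0.57 and -0.44 with EPZ-6438 against N2B27, and -0.49 and 0.30 in N2B27 against PXGL. PTPRZ1 and NRK were also nearest to each other (2.12). Both were far lower in PXGL than in the other groups, while PTPRZ1 was lower with EPZ-6438 than in N2B27 and NRK was not.

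Of 21 other primed and formative genes, 17 were tested with EPZ-6438 against N2B27 by edgeR's quasi-likelihood test, with p adjusted over 15179 genes. Like the members, this list and those below were chosen with earlier results of these data known. Their counts and medians are therefore a description, not independent support for the pattern of the members. Lower calls numbered 8 and higher calls 5, while 4 missed the threshold. The median log2 fold change of the list was -0.39, against 0.01 over all genes tested. Over all genes 10.6% were called lower and 14.2% higher. The de novo methyltransferase DNMT3B (log2 -1.45, SE 0.07, edgeR adjusted p = 7.03e-10) and the growth factor FGF2 (log2 -0.80, edgeR adjusted p = 2.81e-08) fell with the smallest p. The spalt factor SALL3 (log2 1.32, edgeR adjusted p = 0.000109), ZIC2 (log2 1.23, edgeR adjusted p = 0.00024) and the intermediate filament gene VIM (log2 0.48, edgeR adjusted p = 0.00156) rose. SALL3 averaged 26.4 ± 2.02 CPM with EPZ-6438, 10.5 ± 2.24 CPM in N2B27 and 11.5 ± 3.46 CPM in PXGL. The other calls that rose were POU3F1, lost without inhibitor replicate 1 (edgeR adjusted p = 0.0608), and SOX3, lost in 6 of 13 alternatives (edgeR adjusted p up to 0.125). This list too held calls in both directions. SALL3 and POU3F1, however, were not higher in N2B27 than in PXGL by edgeR's test (edgeR adjusted p = 0.617 and 0.647). DNMT3B stood at 333 ± 20.3 CPM with EPZ-6438 and 324 ± 32.2 CPM in PXGL (edgeR adjusted p = 0.668).

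In N2B27 against PXGL, 14 of the 17 rose and 0 fell by edgeR's test, and 3 missed the threshold (median 2.02 in log2, against -0.03 over all genes). Over all genes 27.3% were called higher and 28.7% lower in that comparison. FGF2 rose by log2 3.92, SFRP2, a secreted WNT antagonist, by 8.15 and the ETS factor ETV4 by 3.14. Without PXGL replicate 1, 13 rose and 1 fell in N2B27 against PXGL, the latter being SALL3 (edgeR adjusted p = 0.0255). The FAT3 call in that comparison was lost in 4 of 11 alternatives (edgeR adjusted p up to 0.184). With EPZ-6438 against PXGL, 13 rose, 1 fell and 3 did not pass (median 2.76, against a value near 0 over all genes), beside 28.1% called higher and 28.0% called lower over all genes. The gene that fell was TCF7L1, a repressor of WNT targets, at 6.44 ± 0.446 CPM with EPZ-6438 and 10.6 ± 1.03 CPM in PXGL (log2 -0.71, edgeR adjusted p = 0.000338). These comparisons share libraries and are not independent of each other.

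**Figure D4:**
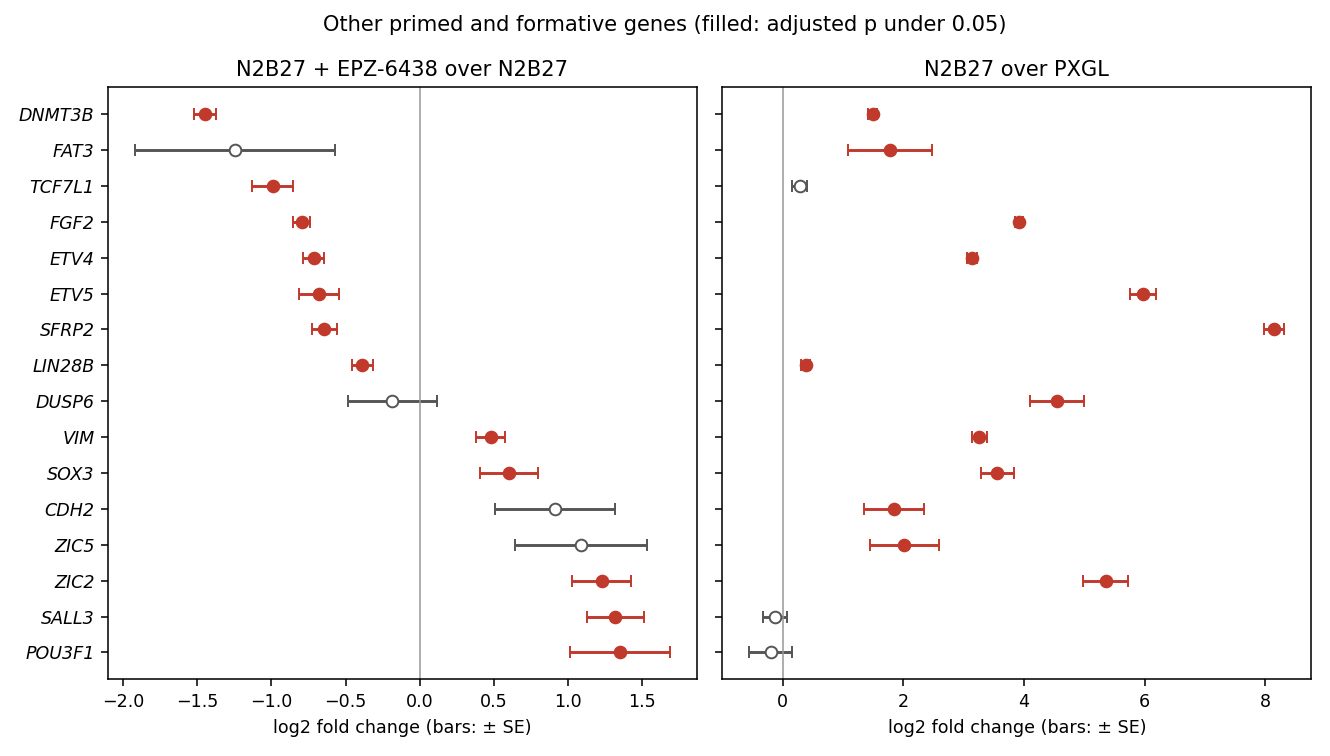
Log2 fold changes with bars of 1 SE (horizontal axes) of 16 of the 17 other primed and formative genes, for N2B27 with EPZ-6438 over N2B27 (left) and N2B27 over PXGL (right). Filled points passed edgeR's test at adjusted p under 0.05. On the left 7 filled points lie below 0 and 5 above it, and on the right 13 lie above 0.

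Relatives and partners of the members moved with them in some cases only. Of 26 listed genes 23 were tested, and with EPZ-6438 against N2B27 5 rose, 3 fell and 15 did not pass, 24.7% of all genes being called in that comparison. The spalt family moved both ways. SALL1 rose to 6.38 ± 1.43 CPM with EPZ-6438, against 2.00 ± 0.411 CPM in N2B27 (log2 1.67, SE 0.26, edgeR adjusted p = 0.000128), and SALL3 rose as given above. SALL4, a core stem cell factor, fell to 192 ± 3.54 CPM, against 242 ± 0.630 CPM in N2B27 (log2 -0.33, SE 0.06, edgeR adjusted p = 0.0004). SOX4, which shares the SOXC group with SOX11, was at 171 ± 10.97 CPM with EPZ-6438 and 156 ± 3.02 CPM in N2B27 (edgeR adjusted p = 0.176). Each SOX4 inhibitor library was above each N2B27 library. SOX4 passed in 2 of 13 alternatives, with only these 2 groups fitted (edgeR adjusted p = 0.0145) and without PXGL replicate 1 (edgeR adjusted p = 0.0186). The deubiquitinase USP3 rose to 4.02 ± 1.24 CPM with EPZ-6438, against 0.669 ± 0.175 CPM in N2B27 (edgeR adjusted p = 8.6e-05). The calls of the RNA polymerase III subunits POLR3A, POLR3C and POLR3K and of the kinase MAP4K4 ended when single libraries were left out, at edgeR adjusted p of up to 0.138, 0.111, 0.105 and 0.17. The MAP4K4 call (edgeR adjusted p = 0.0488) was lost in 10 of 13 alternatives, among them the replicate block, both DESeq2 alternatives and no low-count filter. The count of 8 called genes became 5, 4, 5, 4 and 5 without inhibitor replicate 2, inhibitor replicate 3, N2B27 replicate 1, N2B27 replicate 2 and N2B27 replicate 3. It became 13 without PXGL replicate 1 or with only these 2 groups fitted.

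In N2B27 against PXGL, 10 of the 23 rose, 4 fell and 9 did not pass, beside 56.0% of all genes called. PTPRG, the phosphatase closest to PTPRZ1, rose to 48.0 ± 1.73 CPM in N2B27, against 16.4 ± 2.79 CPM in PXGL (log2 1.54, SE 0.11, edgeR adjusted p = 2.96e-09). The PTPRZ1 ligand PTN, pleiotrophin, rose to 2.15 ± 0.846 CPM, against 0.147 ± 0.128 CPM in PXGL (edgeR adjusted p = 2.19e-05). The other ligand, MDK or midkine, fell to 137 ± 4.79 CPM, against 213 ± 36.8 CPM in PXGL (edgeR adjusted p = 2.86e-05). TNIK, a kinase of the NRK family, rose to 4.84 ± 0.712 CPM, against 0.257 ± 0.128 CPM in PXGL (log2 4.19, SE 0.33, edgeR adjusted p = 1.56e-08), while its relative MINK1 fell (log2 -0.48, edgeR adjusted p = 4.21e-05). POLR3GL, the alternative to POLR3G in RNA polymerase III, fell to 4.79 ± 0.945 CPM, against 8.43 ± 0.736 CPM in PXGL (log2 -0.82, SE 0.19, edgeR adjusted p = 0.00129). With EPZ-6438 against PXGL, 13 rose, 5 fell and 5 did not pass, beside 56.1% of all genes called.

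SOX11 and PTPRZ1 are also expressed in neural progenitors, and 14 neural markers were read beside them. Their summed level was 410.4 to 429 CPM with EPZ-6438, 352 to 391 CPM in N2B27 and 235 to 266 CPM in PXGL, most of it NES. PAX6 and SOX1, which define neural progenitors, were at 0.577 and 0.275 CPM with EPZ-6438 and at 0.525 and 0.0222 CPM in N2B27. Of the 14 markers, 8 were under 1 CPM with EPZ-6438, 10 in N2B27 and 11 in PXGL. HES5 had no count with EPZ-6438 or in PXGL, and SIX3 had none in PXGL. Of 7 tested against N2B27, 3 rose with EPZ-6438 by edgeR's test, SIX3 among them, and 0 fell. SIX3 was at 1.89 ± 0.111 CPM with EPZ-6438 and 0.649 ± 0.331 CPM in N2B27. Their part in the SOX11 and PTPRZ1 values was not tested. The 11 naive markers summed to 3204 to 3284 CPM with EPZ-6438, 2637 to 2648 CPM in N2B27 and 4764 to 5218 CPM in PXGL, none of them at 0 in any group. With EPZ-6438 against N2B27, 7 rose and 2 fell (DPPA5 and DPPA3) by edgeR's test, beside 14.2% and 10.6% of all genes. In N2B27 against PXGL 0 rose and 7 fell, beside 27.3% and 28.7%. ALPG alone went from 1558 ± 34.5 CPM in PXGL to 233 ± 4.85 CPM in N2B27, while KLF17 was at 58.0 ± 2.95 and 57.7 ± 1.91 CPM. Primitive streak markers summed to 155 to 163 CPM with EPZ-6438, 21.6 to 25.1 CPM in N2B27 and 9.61 to 11.9 CPM in PXGL, and all 5 tested rose with EPZ-6438 against N2B27 by edgeR's test. The 10 hypoblast markers summed to 531 to 549 CPM with EPZ-6438, 323 to 333 CPM in N2B27 and 192 to 243 CPM in PXGL. With EPZ-6438 most of this sum was LAMB1 at 354 ± 9.72 CPM and COL4A1 at 128 ± 2.90 CPM. APOA1 had no count in any group, and 4 of the 10 were under 1 CPM with EPZ-6438, against 5 in N2B27 and 5 in PXGL. Of 6 tested, 5 rose with EPZ-6438 against N2B27, among them the endoderm factor GATA6 at 7.97 ± 1.65 CPM, against 0.731 ± 0.269 CPM in N2B27 (edgeR adjusted p = 3.34e-07). PDGFRA did not pass, at 5.57 ± 1.24 CPM with EPZ-6438 and 5.74 ± 0.700 CPM in N2B27 (edgeR adjusted p = 0.907). The 6 amnion markers summed to 51.4 to 54.9 CPM with EPZ-6438, 34.3 to 35.4 CPM in N2B27 and 28.9 to 37.0 CPM in PXGL, and 3 of 5 tested rose with EPZ-6438 against N2B27. BAMBI made up most of the sum, at 39.5 ± 1.05 CPM with EPZ-6438, and VTCN1 had no count in any group. ISL1 and TFAP2A had their highest means in PXGL, at 6.33 ± 0.513 and 2.74 ± 0.694 CPM. The part of these lineages in the members' values was not tested.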

How the data were processed

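Total RNA was Trizol-extracted and sequenced after Ribo-Zero depletion, per the labels' protocols, although the molecule label names polyA RNA; this was not settled. The authors deposited expected counts (estimates, not always whole), and 7.13% to 8.09% of values per library were not whole. Trim Galore, STAR 2.7.6a, DESeq2 and hg38 are named per the submitters' processing notes; none of the sources used here gives the counting program, annotation or strandedness.

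Counts were rounded and fitted with edgeR 4.0.16 in R 4.3.3 (filterByExpr, TMM, robust quasi-likelihood), all 9 libraries in 1 model with a term per group. Of 22640 genes with any count 15179 were tested, with Benjamini-Hochberg adjustment and a threshold of 0.05. SE is the fold change divided by the root of the F statistic. It rests on a spread shared by all groups, so it can understate a wider spread in PXGL. The floor of 3 counts is taken over the 3 libraries of a group; floors and 95% intervals (exact binomial) cover counting error only. The fit was tested on simulated data. No replicate pair differed by as little as sampling noise. Alternatives were DESeq2 1.42.0 (test or size factors), other filters, 2 groups only, a replicate block and leaving out libraries.

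The members and lists were chosen with earlier results of these data known. The genes named are all members, up to 3 list genes per direction with the smallest adjusted p, called relatives of at least 1 CPM, and the 3 nearest genes to OTX2 and USP44. SOX4, POU3F1, SOX3, FAT3 and single marker genes were named outside that rule, after their values were seen. Some genes the rule covers are not reported here. Coordinates and exon lengths came from GENCODE 29, which held 36547 of 40332 symbols.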

Additional observations from a re-analysis of the deposited data

How the results depend on the processing

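Of 120 alternative counts 111 stayed within 1.5 times the reported count. The count of genes called with EPZ-6438 against N2B27 was 3752, became 5641 with only these 2 groups fitted and 5770 when PXGL replicate 1 was left out (an alternative chosen after seeing the data); the cause was not tested. With single libraries of the 2 groups left out it was 2762 to 2859. The 8 called relatives and partners in that comparison became 13 in both of these fits and 4 to 6 with single libraries left out. The number of lowered members was 5, or 6 with POLR3G at a smaller bound and 4 without SALL2 at a 2-fold bound. All 333 alternative fold changes of the 9 fitted members kept their sign. The replicate numbers did not pair the libraries (correlations of same-numbered libraries of -0.026 to 0.037), and with a replicate block 3696 genes were called with EPZ-6438 against N2B27, 8507 in N2B27 against PXGL and 8489 with EPZ-6438 against PXGL. Depth limits CYTL1 in all groups and PTPRZ1, SOX11 and NRK in PXGL.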
